A study of Mus musculus with 8 samples.

Results

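The E-cadherin and catenin adhesion complex was examined in E-cadHI and E-cadLO tumor cells sorted from breast cancer brain metastases (BCBM) of the mouse. Its 9 genes, Cdh1, Cdh3, Ctnna1, Ctnnb1, Ctnnd1, Jup, Vcl, Adam10 and Cbll1, were taken by gene symbol from a count table of 31894 genes, and each symbol matched 1 gene. The tumor cells descend from the PyMT model of breast cancer, in which the polyoma middle T oncogene drives mammary tumors, and express an E-cadherin fusion with mCFP, a cyan fluorescent protein, together with the nuclear label H2B-Dendra2. They had been passaged through the brain and were injected intracranially, as organoids of a single line, into mice of the FVB strain, so the 4 tumors are not 4 independent tumor lines. The labels give every sample the genotype wild type and no treatment, time or age. Each of the mice numbered 57, 58, 67 and 70 gave 1 E-cadHI and 1 E-cadLO library by fluorescence-activated cell sorting (FACS) on the mCFP signal, which reports the fusion protein and not the mRNA. The comparison therefore asked whether cells sorted for low E-cadherin protein also differed in the mRNA of E-cadherin and of the proteins that bind, anchor, cleave or ubiquitinate it.

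E-cadherin is a transmembrane protein that joins neighbouring epithelial cells by binding E-cadherin on the next cell in the presence of calcium. Its cytoplasmic tail binds p120-catenin near the membrane and β-catenin or plakoglobin further along, and α-catenin and vinculin connect these to the actin cytoskeleton. The complex is a landmark of mammary epithelium, and loss of E-cadherin from the cell surface is a classical feature of epithelial-to-mesenchymal transition (EMT).

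None of the 8 tested genes of the complex differed between E-cadLO and E-cadHI cells after adjustment over all genes (adjusted p from 0.369 to 0.925, edgeR quasi-likelihood test). In that test 0.0% of the 13598 tested genes passed, so the result is not one that sets the complex apart. At an unadjusted p under 0.05 none of the 8 passed, against 14.0% of all tested genes. Ctnnb1, encoding β-catenin, and Adam10, a protease that sheds the E-cadherin ectodomain, were lower in E-cadLO cells in 4 of 4 mice, which held for 14.2% of all tested genes. Vcl, encoding vinculin, was higher in 4 of 4 mice, which held for 16.8%. Cdh1 itself was lower in 3 of 4 mice with a mean within-mouse log2 ratio of -0.30 ± 0.59 (SD, n = 4). Cdh3 was close to 0 in nearly all libraries and was not tested.

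The libraries held between 9102781 and 15769200 counts. Levels are given below as CPM, counts scaled to a library total of 1000000 after TMM scaling of the totals. On this scale the floor of 3 counts corresponds to between 0.201 and 0.348 CPM, and floors cover counting error only. The noncoding RNA gene Gm42418 took between 2.23% and 14.4% of the counts, with the highest share in the E-cadLO library of mouse 58. Epithelial genes were abundant in all libraries, with the summed CPM of Epcam, 3 keratins and 3 claudins between 7228 and 9995 in E-cadHI and between 5392 and 13828 in E-cadLO cells. In bulk samples, fewer cells of a type and less RNA per cell cannot be told apart.

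Markers of brain cells were present in both sorted populations, and none of the listed markers was at 0 in all libraries. The summed CPM of the 13 microglia and macrophage markers ranged from 38.8 to 293 in E-cadHI and from 242 to 1049 in E-cadLO libraries and was higher in E-cadLO in 4 of 4 mice. With the mouse in the model, Itgam, Cx3cr1, P2ry12 and Cd68 of this list rose, in a fit that called 0.728% of all tested genes higher. The 9 oligodendrocyte markers summed to between 554 and 8614 CPM in E-cadHI and between 1316 and 34476 CPM in E-cadLO cells, and 2 of them rose in that fit (Mobp and Mbp). Of the 8 astrocyte markers 3 rose (Slc1a3, Gfap and S100b), with sums from 1146 to 3557 CPM and from 723 to 9881 CPM. The astrocyte sum was higher in E-cadLO in 3 of 4 mice and lower in mouse 57. Of the 8 neuron markers 1 rose (Snap25), with sums from 3.69 to 92.5 CPM and from 24.9 to 375.6 CPM. The sums of the 9 endothelial markers were 41.9 to 76.6 CPM and 59.1 to 107.9 CPM, and those of the 6 neutrophil markers 15.6 to 25.0 CPM and 6.84 to 26.6 CPM, with no marker of either list past the threshold. The 8 fibroblast and mural markers summed to between 9.13 and 63.0 CPM in E-cadHI and between 26.5 and 1201 CPM in E-cadLO libraries, with the highest value in mouse 57, and none passed. None of the marker genes named here as rising still passed when mouse 67 or mouse 70 was left out of that fit (adjusted p at least 0.247 and 0.126). The part of these RNAs in the differences described below was not tested.

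**Figure D1:**
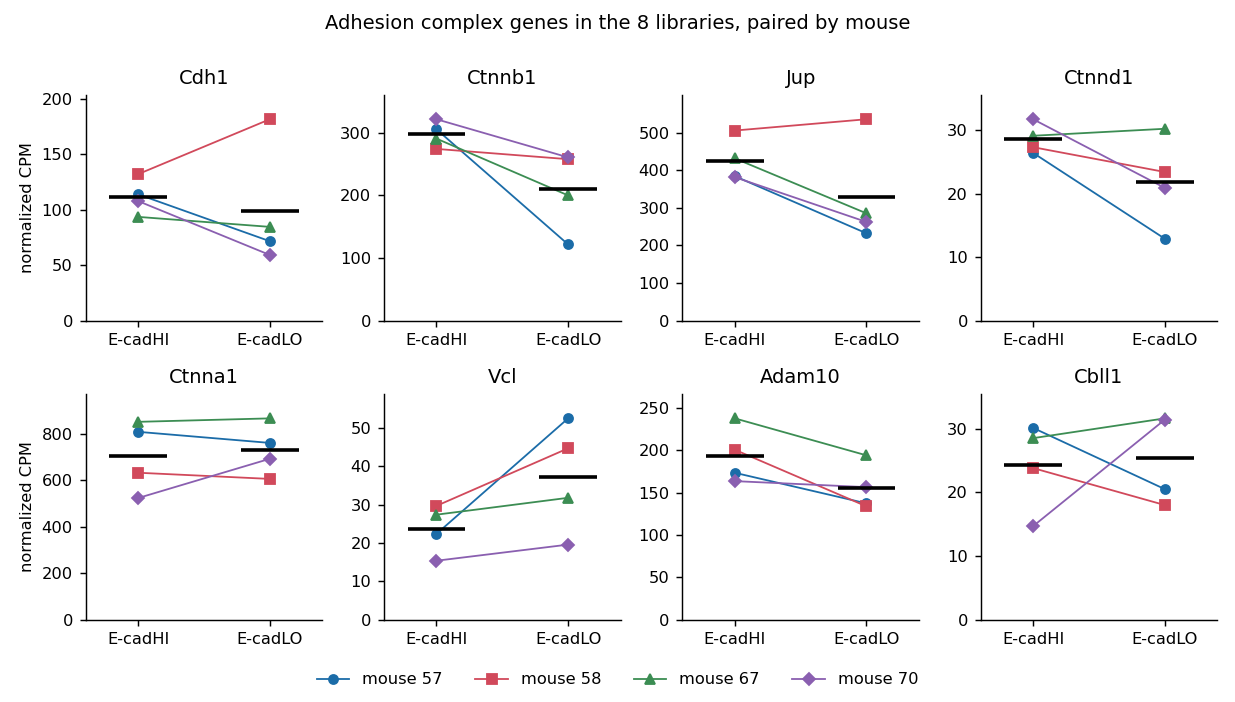
Normalized CPM of the genes of the adhesion complex in the 8 libraries, with 1 panel per gene, each with its own CPM axis, and lines joining the E-cadHI and E-cadLO libraries of a mouse. The Ctnnb1 libraries of the 2 groups do not overlap, Vcl is higher in E-cadLO in each mouse, and Cdh1 crosses, with mouse 58 at 132 CPM in E-cadHI and 181 CPM in E-cadLO.

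Cdh1 (ENSMUSG00000000303), the E-cadherin gene, lies on chromosome 8 at 106603351-106670246 on the plus strand of GRCm38. In E-cadHI cells its level was 114, 132, 93.5 and 108 CPM in mice 57, 58, 67 and 70, and in E-cadLO cells of the same mice it was 71.6, 181, 84.5 and 59.2 CPM. The groups overlapped, because the E-cadLO library of mouse 58 held the highest value of all 8 and those of mice 57 and 70 the lowest. The log2 fold change was -0.17 (SE 0.33, 95% interval -0.91 to 0.57) with an adjusted p of 0.809. With the mouse in the model it was -0.31 (SE 0.23) with an adjusted p of 0.482. Without mouse 58 the same 2 fits gave -0.53 and -0.55, with adjusted p of 0.323 and 0.235. Leaving out mouse 70 instead gave -0.003 and -0.11, and leaving out mouse 57 gave -0.05 and -0.20. The size of the difference thus depended on the mouse left out. The E-cadLO library of mouse 58 is also the one with the largest share of Gm42418, and leaving that gene out of the totals gave a Cdh1 log2 fold change of -0.16. The cells kept Cdh1 mRNA in both sorted populations, with at least 847 counts in every library.

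Cdh1 was next set against genes that mark the epithelial cells of the same library, to lessen the part of a different content of epithelial RNA. A difference in a reference gene itself still enters the ratio. The log2 ratio of Cdh1 to the mean of Epcam, Krt8, Krt18, Krt19, Cldn3, Cldn4 and Cldn7 was -2.69 ± 0.44 (SD, n = 4) in E-cadHI and -2.77 ± 0.66 (SD, n = 4) in E-cadLO cells. The difference of -0.08 was smaller than the spread in either group (exact permutation test, two-sided, p = 0.83, adjusted p = 1 over 3 ratios, smallest possible p 0.0286). The within-mouse values were 0.69, 0.07, -0.42 and -0.69 in the usual order, and so had no common direction. Part of this spread came from Cldn4. It was at 284 CPM in the E-cadHI library of mouse 57 and at 29.6 to 42.8 CPM in the other E-cadHI libraries. In E-cadLO it was lower in mouse 57 and higher in the other mice. Against the keratins alone the within-mouse values were 0.22, 0.16, -0.6 and -0.74, and the mean difference was -0.24. Against Epcam alone it turned to 0.60 (exact permutation p = 0.229).

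The reversal went with Epcam, an epithelial surface glycoprotein. It was at 1344, 1134, 1291 and 1311 CPM in the E-cadHI and at 290.2, 1101, 827 and 792 CPM in the E-cadLO libraries of mice 57, 58, 67 and 70. Epcam was thus lower in E-cadLO in 4 of 4 mice, which held for 14.2% of all tested genes. The groups did not overlap, which held for 4.2%, but the gap was small, at 1134 against 1101 CPM in mouse 58. Its log2 fold change was -0.75, with an adjusted p of 0.363. Relative to Epcam, Cdh1 was higher in E-cadLO cells in mice 57, 58 and 67, by 1.54, 0.50 and 0.50 on the log2 scale, and was at -0.13 in mouse 70.

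Cdh3 (ENSMUSG00000061048), which encodes P-cadherin of basal and myoepithelial cells, lies beside Cdh1 on chromosome 8 at 106510891-106557297, plus strand. It had 3, 7, 10 and 1 counts in the E-cadHI and 16, 0, 0 and 1 counts in the E-cadLO libraries of mice 57, 58, 67 and 70. Only the E-cadHI libraries of mice 58 and 67 and the E-cadLO library of mouse 57 were above the floor of 3 counts, and a count of 0 in these libraries allows up to 0.348 CPM in mouse 58 and 0.201 CPM in mouse 67. The gene did not reach the count minimum of edgeR's filter and has no fold change. The log2 ratio of Cdh3 to Cdh1 differed by 0.01 between the groups (exact permutation p = 1). At these counts the ratio is mostly the pseudocount of 0.5 CPM over Cdh1, so it is no measure of a change from one cadherin to the other.

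Ctnnb1 (ENSMUSG00000006932) encodes β-catenin, which binds the E-cadherin tail and also acts in the nucleus as a coactivator of Wnt target genes. It lies on chromosome 9 at 120929216-120960507, plus strand. Its level was 306, 274, 291 and 322 CPM in the E-cadHI libraries of mice 57, 58, 67 and 70, and 122, 258, 200.1 and 261 CPM in the E-cadLO libraries. All E-cadLO values lay below all E-cadHI values, and Ctnnb1 was the 1 tested gene of the complex for which this was so, against 4.2% of all tested genes. The size of the difference depended on the mouse, from -1.32 on the log2 scale in mouse 57 to -0.09 in mouse 58. The log2 fold change was -0.50 (SE 0.23, 95% interval -1.03 to 0.02, adjusted p = 0.369). With the mouse in the model it was -0.56 (SE 0.23), with an unadjusted p of 0.0387 and an adjusted p of 0.234. Without mouse 57 it was -0.33 in both fits. The opposite-strand gene Ulk4 shares 14.6% of the exon length of Ctnnb1, and its own level was between 1.46 and 6.32 CPM, far below that of Ctnnb1.

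Jup (ENSMUSG00000001552) encodes plakoglobin, or γ-catenin, which takes the place of β-catenin on the E-cadherin tail and is shared with desmosomes. It lies on chromosome 11 at 100368958-100397763, minus strand. The E-cadHI libraries of mice 57, 58, 67 and 70 held 384, 505, 431 and 381 CPM, and the E-cadLO libraries held 232, 535, 285 and 262 CPM. As for Cdh1, mouse 58 went the other way from the other mice, with a log2 ratio of 0.08 against -0.72, -0.60 and -0.54. The log2 fold change was -0.37 (SE 0.27, adjusted p = 0.515), and with the mouse in the model -0.45 (SE 0.19, unadjusted p = 0.0478, adjusted p = 0.251). Since both proteins bind the same part of the tail, the ratio of Jup to Ctnnb1 was compared, and its log2 value was 0.51 ± 0.28 in E-cadHI and 0.62 ± 0.47 in E-cadLO cells (SD, n = 4 each). The difference of 0.12 was within the spread (exact permutation p = 0.714, adjusted p = 1 over 3 ratios) and its sign differed among mice, at 0.60, 0.17, -0.06 and -0.24.

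Ctnnd1 (ENSMUSG00000034101) encodes p120-catenin, which holds E-cadherin at the membrane by masking its endocytosis signal. It lies on chromosome 2 at 84600071-84650765, minus strand. Its level was 26.4, 27.3, 29.1 and 31.7 CPM in E-cadHI and 12.9, 23.4, 30.2 and 20.9 CPM in E-cadLO libraries, in the same order of mice. Mouse 67 alone was not lower in E-cadLO, and its value there lay inside the E-cadHI range. Its log2 fold change was -0.39 (SE 0.26, adjusted p = 0.488). The same-strand gene model Gm28635 of GENCODE M21 shares 61.2% of the exon length of Ctnnd1 but was not among the counted genes. Whether shared reads were split or dropped in counting is not known, so the level of Ctnnd1 is uncertain.

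Ctnna1 (ENSMUSG00000037815) encodes αE-catenin, the actin-binding link that joins β-catenin or plakoglobin to the cytoskeleton, on chromosome 18 at 35118888-35254773, plus strand. It held 809, 633, 852 and 524 CPM in the E-cadHI and 761, 606, 867 and 693 CPM in the E-cadLO libraries of mice 57, 58, 67 and 70. Its values spread more among mice than between the populations of a mouse, with within-mouse log2 ratios of -0.09, -0.06, 0.02 and 0.40. Its log2 fold change was 0.06 (SE 0.21, 95% interval -0.41 to 0.52, adjusted p = 0.909).

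Vcl (ENSMUSG00000021823) encodes vinculin, which is recruited to α-catenin under tension and is also a component of focal adhesions. It lies on chromosome 14 at 20929433-21033673, plus strand. Its level was 22.4, 29.7, 27.4 and 15.4 CPM in the E-cadHI and 52.5, 44.7, 31.8 and 19.6 CPM in the E-cadLO libraries of mice 57, 58, 67 and 70. Each mouse was higher in E-cadLO, by log2 ratios of 1.21, 0.58, 0.21 and 0.34, but the groups overlapped, because mouse 70 was low in both populations. The log2 fold change was 0.65 (SE 0.33, 95% interval -0.10 to 1.39, adjusted p = 0.400). With the mouse in the model it was 0.60 (SE 0.23, unadjusted p = 0.0305, adjusted p = 0.218). The highest Vcl value was in the E-cadLO library of mouse 57, which also held the fibroblast and mural sum of 1201 CPM, and without mouse 57 the log2 fold changes were 0.39 and 0.36. The 3 other mice were still higher in E-cadLO. Ap3m1, on the opposite strand, shares 25.5% of the exon length of Vcl, and its log2 fold change was -0.09 (adjusted p = 0.801). Its level, between 57.7 and 84.3 CPM, was above that of Vcl in each library. Whether counting used strand is not stated, so the level of Vcl is uncertain.

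Adam10 (ENSMUSG00000054693), on chromosome 9 at 70678997-70780229, plus strand, encodes the metalloprotease that sheds the extracellular part of E-cadherin and also cleaves Notch. Its level was 173, 200.5, 237 and 163 CPM in the E-cadHI and 137, 134, 194 and 156 CPM in the E-cadLO libraries of the same mice. E-cadLO was lower in each mouse, by -0.34, -0.58, -0.29 and -0.06, although the E-cadLO value of mouse 67 exceeded 2 E-cadHI values. Adam10 had a log2 fold change of -0.32 (SE 0.18, adjusted p = 0.437) without and -0.32 (SE 0.15, adjusted p = 0.295) with the mouse in the model.

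Cbll1 (ENSMUSG00000020659), on chromosome 12 at 31484829-31499616, minus strand, encodes Hakai, a ubiquitin ligase that targets tyrosine-phosphorylated E-cadherin. It was at 30.1, 23.8, 28.5 and 14.7 CPM in the E-cadHI and at 20.5, 18, 31.6 and 31.4 CPM in the E-cadLO libraries of mice 57, 58, 67 and 70. The mice split, with log2 ratios of -0.54, -0.39, 0.15 and 1.08, and the log2 fold change was 0.07 (SE 0.29, 95% interval -0.59 to 0.73, adjusted p = 0.925). The antisense gene model Gm29542 of GENCODE M21 shares 17.6% of its exon length but was not among the counted genes. Whether counting used strand is not stated.

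**Figure D2:**
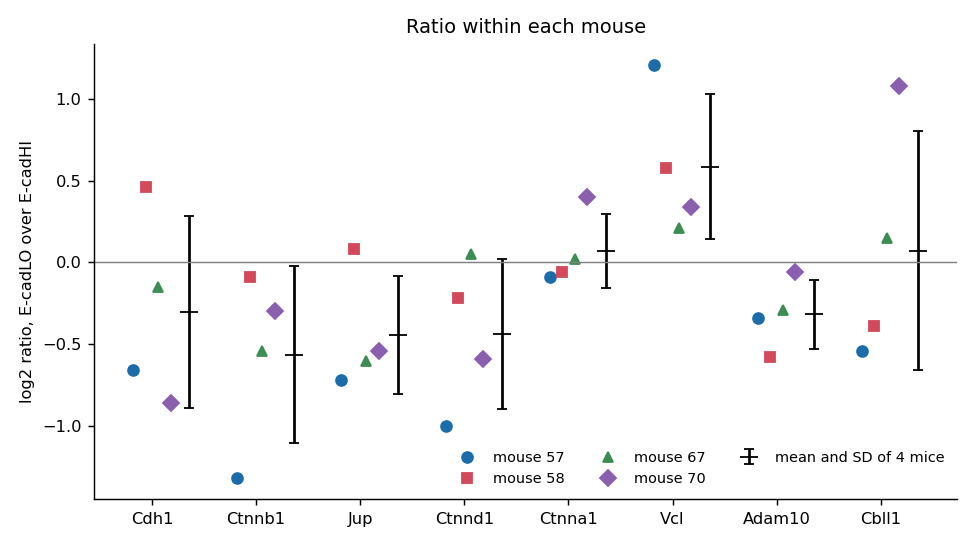
Within-mouse log2 ratios, E-cadLO over E-cadHI, on normalized CPM plus 0.5 for each gene of the complex, with 1 point per mouse and a bar at the mean. Ctnnb1 and Adam10 lie below 0 in 4 of 4 mice and Vcl above 0 in 4 of 4, while Cbll1 runs from -0.54 to 1.08.

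Of the 8 tested genes, 5 had a log2 fold change below 0 and 3 above 0, and 44.9% of all tested genes were below 0. Their median log2 fold change was -0.25, beside 0.065 over all tested genes, and with the mouse in the model the medians were -0.31 and 0.03. In that fit 0.728% of all genes were called higher and 0.0% lower, and no gene of the complex was among them. At an unadjusted p under 0.05, 1 of the 8 was higher (Vcl), against 12.3% of all genes, and 2 were lower (Ctnnb1 and Jup), against 7.33%. DESeq2 called 2.94% of the genes it gave an adjusted p without the mouse and 8.69% with it, again with none of the complex.

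Per length of exon sequence in GENCODE M21, which may differ from the annotation release the counts were made with, the complex spanned a wide range of levels. Ctnna1 was highest at 109.7 ± 23.8 CPM per kb in E-cadHI and 113.9 ± 17.1 CPM per kb in E-cadLO cells (SD, n = 4 each, as for the next values). Jup followed at 66.1 ± 9.0 and 51.1 ± 21.7 CPM per kb and Ctnnb1 at 57.4 ± 3.91 and 40.5 ± 12.6 CPM per kb, and the libraries of these neighbours overlapped in both populations. Adam10 was at 39.4 ± 6.74 and 31.6 ± 5.61 CPM per kb and Cdh1 at 24.4 ± 3.49 and 21.7 ± 12.2 CPM per kb. The cadherin mRNA was below those of Ctnna1, Jup and Ctnnb1 in each of the 8 libraries. Cbll1 (6.06 ± 1.73 and 6.34 ± 1.79 CPM per kb), Ctnnd1 (3.91 ± 0.32 and 2.98 ± 0.97) and Vcl (2.89 ± 0.78 and 4.53 ± 1.77) formed a lower group. The libraries of Ctnnd1 overlapped with those of Vcl in both populations and with those of Cbll1 in E-cadHI cells. In E-cadLO cells those of Cbll1 all lay above those of Ctnnd1, and in E-cadHI cells above those of Vcl. Cdh3 was at 0.09 and 0.07 CPM per kb.

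**Figure D3:**
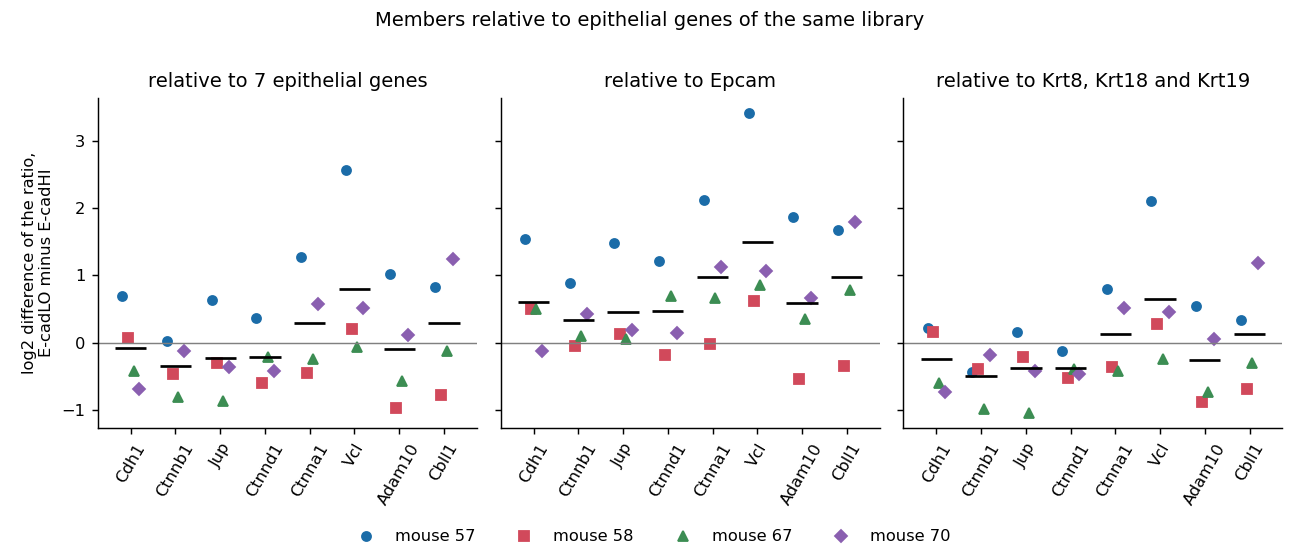
Difference between E-cadLO and E-cadHI in the log2 ratio of each tested gene to 7 epithelial genes, to Epcam, or to 3 keratins of the same library, with 1 point per mouse and a bar at the mean. The mean of each gene lies higher relative to Epcam than relative to the keratins, and mouse 57 is the highest point of every gene but Cbll1 in the Epcam panel.

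The other genes of the complex were set against the same epithelial references. Relative to the 3 keratins, Ctnnb1 was lower in E-cadLO cells in 4 of 4 mice, with a mean log2 difference of -0.50, and Ctnnd1 in 4 of 4 with a mean of -0.38. Relative to all 7 genes both were lower in 3 of 4 mice, with means of -0.35 and -0.22. Relative to Epcam the means turned to 0.34 and 0.47. The mean of Vcl was 0.80 for 7 genes, 1.49 for Epcam and 0.65 for the keratins, but mouse 57 gave the highest value for each (2.57, 3.42 and 2.1). Without mouse 57, a setting chosen after seeing the data, the means were 0.21, 0.85 and 0.17, and mouse 67 was at -0.06 and -0.24 for the first and the last. The direction of Ctnnb1, Ctnnd1 and Jup relative to epithelial RNA therefore depended on the epithelial gene chosen.

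The genes whose level across the 8 libraries was most like that of Cdh1 were sought among 9231 genes with a mean of at least 10 CPM. The 5 closest by Pearson correlation of log2 CPM were Mtss1 (r = 0.95), an actin and membrane-binding scaffold, Hnrnpll (r = 0.94), a splicing regulator, Flii (r = 0.94), an actin-remodelling protein, Atp13a2 (r = 0.93), a lysosomal transporter, and Dcun1d5 (r = 0.93), a cullin neddylation factor. Like Cdh1, all 5 had their highest value in the E-cadLO library of mouse 58, the one with the lowest total and the largest Gm42418 share, and libraries of a mouse are not independent. Within the complex Jup was closest to Cdh1, with r = 0.90 and rank 29 of 9231. Ctnnb1 followed at r = 0.43, Ctnnd1 at 0.39, Vcl at 0.18 and Adam10 at -0.06, and Ctnna1 and Cbll1 ran opposite at -0.42 and -0.46. These are descriptions over 8 libraries and carry no test.

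Promoter sequence was compared for the genes listed in RefSeq for GRCm38.p6, where 6 of the 9 matched (Ctnnd1, Adam10, Ctnnb1, Jup, Cbll1 and Vcl). Cdh1, Cdh3 and Ctnna1 were not matched. The promoters of Vcl and Ctnnb1 are shown because these genes had the largest fold changes in each direction. Each is the 250 bases before the transcription start listed in RefSeq, for Ctnnb1 before the first of 2 starts, written 5′ to 3′ on the gene's strand. The Ctnnb1 window lies inside the gene span given above, which begins at 120929216, because the 2 sources place the start differently. Capitals mark the GC box GGGCGG, which Sp1 factors bind, on either strand and, in Vcl, the CArG box, the site of serum response factor.
Vcl, chr14:20929148-20929397, plus strand: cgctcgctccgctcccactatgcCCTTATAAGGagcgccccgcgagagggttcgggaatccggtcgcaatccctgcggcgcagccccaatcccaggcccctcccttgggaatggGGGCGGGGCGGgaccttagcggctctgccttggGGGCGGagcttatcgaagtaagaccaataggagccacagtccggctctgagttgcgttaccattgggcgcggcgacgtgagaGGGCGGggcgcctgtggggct
Ctnnb1, chr9:120933150-120933399, plus strand: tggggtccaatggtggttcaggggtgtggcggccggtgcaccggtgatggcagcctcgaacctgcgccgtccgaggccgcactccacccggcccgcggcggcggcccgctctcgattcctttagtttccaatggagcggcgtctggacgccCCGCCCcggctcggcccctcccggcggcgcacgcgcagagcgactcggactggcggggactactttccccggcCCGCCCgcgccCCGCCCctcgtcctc
The Vcl window held 1 CArG box, 227 bases before the start, a motif in 1.47% of the 32817 promoters of this length, and 4 GC boxes, some of them overlapping. The Ctnnb1 window held 3 GC boxes, a motif in 32.7% of promoters. Neither the E-box CAGGTG, which EMT repressors of the Snail and Zeb families bind, nor the AP-1 motif TGANTCA was found on either strand of the windows of the 6 genes, and they stood in 17.2% and 6.75% of promoters. These matches describe letters in the window and not binding.

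**Figure D4:**
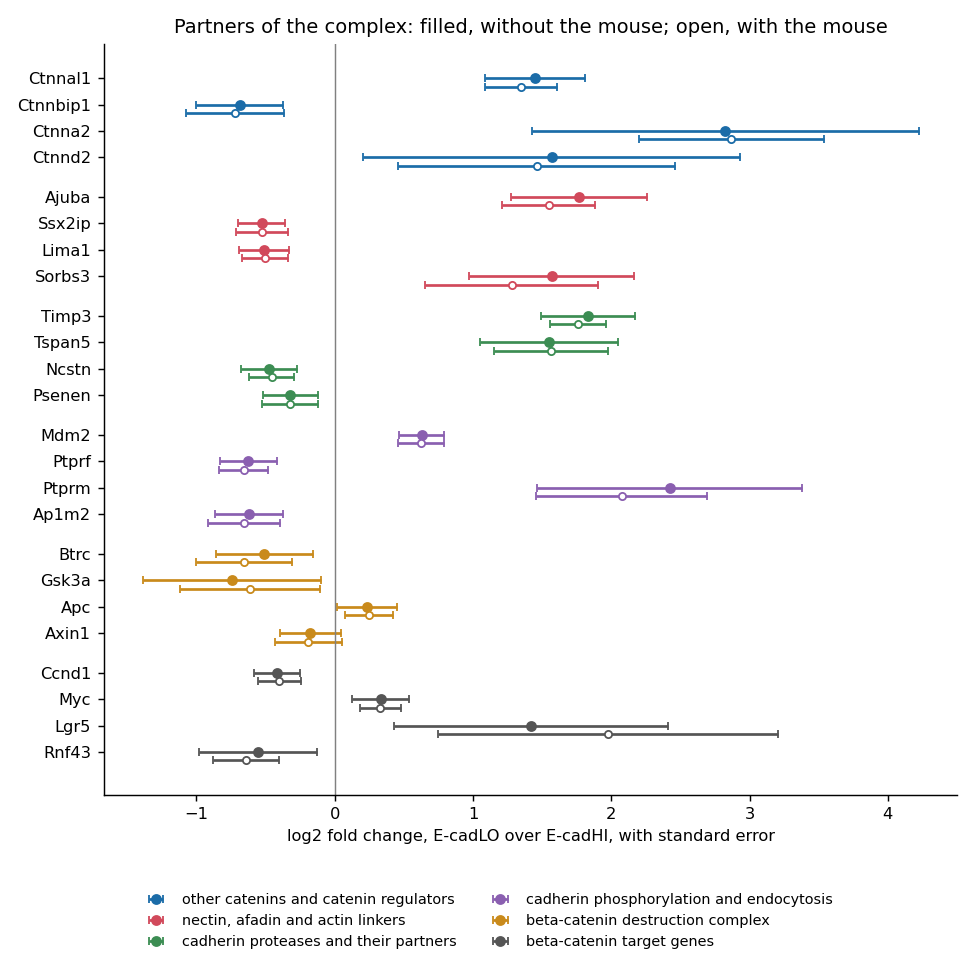
Log2 fold changes, E-cadLO over E-cadHI, with standard errors for up to 4 genes from each of 6 lists of partners of the complex, without (filled) and with (open) the mouse in the model. Timp3 is the 1 gene shown that passed the threshold, at 1.76 in the fit with the mouse.

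The partners of the complex were described from lists written by hand. Without the mouse in the model no gene of any list passed, and with it 1 of the 103 tested partners passed (0.971%), a share near the 0.728% of all genes called higher in that fit. Among 7 other catenins and catenin regulators, 6 were above 0 and 1 below, with a median log2 fold change of 1.02. Ctnnal1, an α-catenin relative, was at 11.4, 7.99, 11.6 and 12.6 CPM in E-cadHI and 40.9, 12.2, 34.2 and 31.7 CPM in E-cadLO libraries, a log2 fold change of 1.45 (adjusted p = 0.256, and 0.0736 with the mouse). Ctnna2 and Ctnnd2, the α- and δ-catenins of neurons, were at 2.83 and 1.57 (adjusted p of 0.388 and 0.577), beside the neuron markers given above. Both were low in some E-cadHI libraries and met the count minimum of the filter through E-cadLO libraries as well. Ctnnbip1, an inhibitor that keeps β-catenin from TCF, was at -0.69 (adjusted p = 0.366).

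The list of 25 nectin, afadin and actin linkers had 11 genes above and 14 below 0, with a median of -0.07. Ajuba, a LIM protein that binds α-catenin, was at 17.1, 23.8, 11.8 and 13.8 CPM in E-cadHI and at 98, 74.4, 36.5 and 17.4 CPM in E-cadLO libraries of mice 57, 58, 67 and 70. Its log2 fold change was 1.77 (adjusted p = 0.269, and 0.0943 with the mouse), and, as for Vcl, mouse 57 had the highest value. Ssx2ip, an afadin-binding protein, and Lima1, which links cadherin complexes to actin, were lower in 4 of 4 mice, at -0.53 and -0.51 (adjusted p of 0.298 and 0.303). Sorbs3, encoding the vinculin-binding protein vinexin, was at 1.57 (adjusted p = 0.316).

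Of 22 listed cadherin proteases and their partners 18 were tested, 7 above and 11 below 0, with a median of -0.03. Timp3, an inhibitor of metalloproteases that include ADAM10, rose in E-cadLO cells in the fit with the mouse (log2 fold change 1.76, SE 0.20, adjusted p = 0.0239), but did not pass without it (1.83, adjusted p = 0.204). With the mouse in the model it also did not pass once mouse 67 (1.70, adjusted p = 0.247) or mouse 70 (1.66, adjusted p = 0.137) was left out. Its level was 11.1, 13.6, 15.8 and 19.9 CPM in E-cadHI and 35, 33.7, 61.8 and 84.6 CPM in E-cadLO libraries. Tspan5, a tetraspanin that accompanies ADAM10 to the surface, was at 1.55 (adjusted p = 0.298). The γ-secretase subunits Ncstn and Psenen were at -0.47 and -0.32 (adjusted p of 0.346 and 0.464).

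Among 17 tested genes of cadherin phosphorylation and endocytosis, of 18 listed, 9 were above and 8 below 0, and the median was 0.04. Mdm2, a ubiquitin ligase, was higher in 4 of 4 mice at 0.63 (adjusted p = 0.262). The phosphatase gene Ptprf and Ap1m2, a subunit of the epithelial clathrin adaptor, were lower in 4 of 4 mice at -0.63 and -0.62 (adjusted p of 0.298 and 0.325). Ptprm, a phosphatase of cell contacts, was at 2.42 (adjusted p = 0.325) with levels of 0.139 to 11.7 CPM.

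For β-catenin as a signalling molecule, the 7 genes of the destruction complex had a median of -0.10, with 2 above and 5 below 0. Btrc, Gsk3a, Apc and Axin1 were at -0.51, -0.74, 0.23 and -0.18 (adjusted p from 0.497 to 0.703). Of 13 listed β-catenin target genes 7 were tested, 4 above and 3 below 0. Ccnd1, encoding cyclin D1, was lower in 4 of 4 mice at -0.42 and Myc was higher in 4 of 4 at 0.33, with adjusted p of 0.330 and 0.461. Lgr5 and Rnf43, which act at the Wnt receptor, were at 1.42 and -0.55 (adjusted p of 0.504 and 0.537). The target genes thus had no common direction.

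Of 10 listed repressors of Cdh1 transcription 6 were tested, 5 of them above 0, with a median log2 fold change of 0.90 and none past the threshold. Of all tested genes 44.9% were below 0. Zeb1 and Zeb2 were low in some E-cadHI libraries and met the count minimum of the filter through E-cadLO libraries as well. Their direction was therefore partly set by the filter. Zeb2 was at 0.0697, 4.38, 1.78 and 15.2 CPM in E-cadHI and at 40, 10, 14.7 and 74.4 CPM in E-cadLO libraries, a log2 fold change of 2.71 (SE 1.11, adjusted p = 0.334, and 0.163 with the mouse). Mouse 70 was highest for Zeb2 in both populations, as it was for the microglia and oligodendrocyte sums. The E-cadLO library of mouse 57 was next highest for Zeb2 but held the lowest oligodendrocyte sum of the E-cadLO libraries, 1316 CPM. Its microglia and macrophage sum was 274 CPM, against 822 CPM in mouse 67. The part of brain cell RNA in the Zeb2 level was not tested. Tcf4 was at 0.64, Snai1 at 0.68 and Zeb1 at 2.29 (adjusted p of 0.341, 0.436 and 0.436). The 11 activators split into 6 above and 5 below 0, with Klf4 at 1.67 and Ovol1 at 1.18 and with Gata3 at -0.70 and Grhl2 at -0.57 (adjusted p from 0.298 to 0.331). Gata3, a luminal mammary factor, was lower in 4 of 4 mice, at 508, 484, 772 and 392 CPM in E-cadHI and at 338, 297, 414 and 282 CPM in E-cadLO libraries.

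Of 13 other cadherins listed 5 were tested and all 5 were above 0, with none past the threshold, while 44.9% of all tested genes were below 0. Those named below were low in E-cadHI and met the count minimum of the filter through E-cadLO libraries as well. Their shared direction was therefore partly set by the filter. Cdh2, encoding N-cadherin, was at 0.279, 2.38, 0.00 and 2.11 CPM in E-cadHI and at 1.26, 1.74, 5.52 and 13.3 CPM in E-cadLO libraries (log2 fold change 2.20, SE 1.19, adjusted p = 0.418). Cdh11, a mesenchymal cadherin, was higher in 4 of 4 mice at 1.82 (adjusted p = 0.431, and 0.104 with the mouse). Cdh22 and Cdh10, cadherins of the brain, were at 1.83 and 2.12 (adjusted p of 0.428 and 0.435). Even in E-cadLO cells the highest Cdh2 level of 13.3 CPM was below the lowest Cdh1 level of 59.2 CPM, on a scale not corrected for length.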

How the data were processed

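RNA of sorted E-cadHI and E-cadLO cells was sequenced as single reads. The authors mapped them with HISAT2 2.1.0 to GRCm38 (processing notes) and deposited unnormalized whole-number counts per gene. The paper names Icount and the notes HTSeq as counter, and treatment of strand and of reads matching several genes is not stated. The 365 rows without a gene (0.0636 to 0.0954% of counts) were left out.

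edgeR 4.0.16 (R 4.3.3) was run with TMM, filterByExpr and the quasi-likelihood test on all 8 libraries without the mouse, with Benjamini-Hochberg adjustment over 13598 genes and a threshold of 0.05. The 2 libraries of a mouse come from the same animal, which pairs them. Correlations of deviations from the group means were 0.248 to 0.692 within mice and at most 0.144 between mice. Such deviations cancel within a group, so this contrast is partly built in. Because of the shared animal, a second fit, with the mouse number as replicate block, is given too. Standard errors and intervals come from these fits. Other alternatives were DESeq2 1.42.0, other size factors and filters, a robust fit, another pseudocount, other epithelial references and each mouse left out. Ratios used CPM plus 0.5 and exact two-sided permutation tests (smallest p 0.0286 unpaired, 0.125 by sign flip within mice).

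Exon lengths and overlaps are from GENCODE M21 (GRCm38), not the release used for counting. Some gene ends differ between them (Ctnna1 starts at 35118859 in M21 and 35118888 in the count table), so CPM per kb and shared exon lengths are approximate. All genes of the complex are named, and from each list the genes that passed plus those of smallest p, up to 4. Of the lists of brain, vascular and immune markers only genes that passed are named, and 1 listed gene is not reported here. Members and lists were chosen with earlier results of these data known. The edgeR fits without and with the mouse were tested on simulated counts with 4-fold changes, larger than those of the tested genes of the complex. The exact tests were checked on made-up values with a known answer. Python 3.11, pandas 2.3, scipy 1.17 and matplotlib 3.10 were used.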

Additional observations from a re-analysis of the deposited data

Results flagged for a closer look

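Cdh3 in the E-cadLO group was flagged because the library of mouse 57, at 1.19 CPM (16 counts), stood far from the other 3, which held 0, 0 and 1 counts. It was the 1 group flagged of 35 groups of 4 libraries examined, where chance gives about 1 in 20, or 1.8 groups.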

How the results depend on the processing

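No gene of the complex passed in any of 17 alternatives to the fit without the mouse. Over these the log2 fold change ran from -0.71 to -0.33 for Ctnnb1 (adjusted p 0.140 to 0.693), from 0.36 to 0.82 for Vcl (0.137 to 0.794), from -0.61 to -0.30 for Jup and from -0.55 to -0.003 for Cdh1. Over all genes, 0 were called higher and 0 lower without the mouse, and 99 and 0 with the replicate block. The counts higher were 386 with DESeq2, 1031 with DESeq2 and the replicate block, 23 with no filter and 3 with at least 10 counts in every library. The counts lower were 43 with DESeq2 and 216 with DESeq2 and the replicate block. With 1 mouse left out they ranged from 0 to 425 higher and from 0 to 24 lower, both highest with the replicate block and without mouse 57, and without mouse 58, 67 or 70 the block gave 63, 0 and 2 higher. The cause was not tested. With 1 mouse left out, without or with the block, Ctnna1 ranged from -0.0305 to 0.1275 and Cbll1 from -0.257 to 0.2589 (without the block at most 0.0982 and 0.2465), both below 0 without mouse 70 (-0.0266 and -0.222, and with the block -0.0305 and -0.257). The ratio of Cdh1 to 7 epithelial genes turned from -0.08 to 0.60 with Epcam as the reference and ranged from -0.34 to 0.12 with 1 mouse left out. That of Cdh3 to Cdh1 ranged from -0.62 to 0.52 and that of Jup to Ctnnb1 from -0.0408 to 0.238. Leaving Gm42418 out, chosen after seeing the data, gave 0 calls, as in the fit with it. Depth limits Cdh3, whose counts were 0 to 16.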
